A study of Mus musculus with 14 samples.

Results

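The circadian clock genes described here are Arntl (also called Bmal1), Clock, Per1, Per2, Per3, Cry1, Cry2, Nr1d1, Nr1d2 and Dbp, a list of 10 genes taken by symbol from a count table of 51789 genes. All 10 were found, had reads in each of the 14 libraries, and were among the 17294 genes kept by the filter on low counts. The libraries were made from bulk mouse tumour RNA with the QuantSeq kit, a protocol that sequences only the 3′ ends of polyadenylated transcripts. They fall into 4 groups: mice of the strain labelled NGS given vehicle (n = 3) or ACSS2i (n = 3), and mice of the strain labelled C57BI/6, written C57BI6 below, given vehicle (n = 4) or ACSS2i (n = 4). ACSS2i is an inhibitor of ACSS2, the enzyme that turns acetate into acetyl-CoA outside the mitochondria, and the series title places the work in triple negative breast cancer. Which mouse the label NGS stands for, the tumour cells, the dose, the length of treatment, the age of the mice and the hour at which tumours were taken are stated by no label. Nothing says that libraries of a group came from separate mice, so the p-values measure the spread between these samples.

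The clock is a feedback loop of transcription. The CLOCK and ARNTL proteins bind E-boxes as a pair and activate the Per and Cry genes, whose proteins return to block that pair. The same pair activates Nr1d1 and Nr1d2, which encode the REV-ERB receptors that repress Arntl through ROR elements, and Dbp, an activator that binds D-boxes and is a standard readout of the loop. In most tissues the RNA of these genes, with Clock the flattest, rises and falls over the day, with Arntl near its peak when Dbp and the Nr1d genes are near their trough.

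Motifs of the kind that these proteins bind were looked for in the promoters of several of the genes. RefSeq promoter windows (GRCm38, 250 bases before to 50 after a transcript start) matched 9 of the 10 genes, all but Per2, in 13 windows. Both strands were searched for the E-box CACGTG, the variant E-box CACGTT, the D-box as TTATGTAA or TTACGTAA, the ROR element core AGTAGGTNA and the cyclic AMP response element TGACGTCA, and no letters of one motif lay within another in the windows of these genes. The Per3 window is shown because it alone among the 9 genes held D-boxes, 2 copies of TTATGTAA, marked in capitals in the 250 bases before its start (minus strand, chr4:151044666-151044915).
Per3: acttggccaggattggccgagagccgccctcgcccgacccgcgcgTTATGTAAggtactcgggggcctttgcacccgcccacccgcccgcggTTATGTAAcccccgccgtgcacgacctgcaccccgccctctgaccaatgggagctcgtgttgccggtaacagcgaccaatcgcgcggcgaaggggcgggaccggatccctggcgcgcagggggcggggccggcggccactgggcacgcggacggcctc
The sites of Cry1, Per1 and Arntl are shown as stretches of 30 bases with the motif in capitals, because they match the E-box and the ROR element named in the account of the loop. They are an E-box of Cry1 (minus strand, chr10:85185097-85185126), an E-box of Per1 (plus strand, chr11:69098771-69098800) and both ROR element cores of Arntl (plus strand, chr7:113207493-113207522 and chr7:113207529-113207558), which lie just past the first annotated start.
Cry1: ggtgccggtggtCACGTGgggtgcatgccg
Per1: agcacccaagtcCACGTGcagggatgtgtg
Arntl first site: ttggtcggaaAGTAGGTTAgtggtgcgaca
Arntl second site: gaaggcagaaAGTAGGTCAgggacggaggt
The variant E-box was found in the windows of Cry1, Cry2 and Nr1d1, and the cyclic AMP response element in none of the 13. Of 32851 RefSeq windows of the same length, 7.15% held the E-box, 4.68% the variant E-box, 1.06% the D-box, 0.591% the ROR element core and 1.79% the cyclic AMP response element. These are matches of letters, not measured binding.

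Several properties of the libraries bear on all values below. Depth followed the strain, from 2.85 to 4.7 M counts in NGS and from 17.6 to 20.3 M in C57BI6, so that strain and depth cannot be told apart by design. When each library was thinned to the smallest total, no called strain difference of a clock gene changed sign. Clock in ACSS2i lost its call (0.27, edgeR adjusted p = 0.0882), and Nr1d1 in vehicle gained one (-0.635, edgeR adjusted p = 0.0127). Thinning evens the depth but keeps the expected CPM, so it cannot part strain from depth. The first principal component (60.5% of the variance) separated the strains, and on the second (11.1%) NGS ACSS2i replicate 2 stood alone at -114.8, against -37.7 to 55.6 for the others. Of the fixed marker lists, the summed level of 10 skeletal muscle genes was highest in NGS vehicle 2 (6630 CPM, counts scaled to a common library total), C57BI6 ACSS2i 3 (3000 CPM) and NGS vehicle 3 (2800 CPM), with 3.38 to 1000 CPM in the rest, and all 10 genes were detected in every group. Without these 3 muscle-rich libraries only NGS vehicle 1 is left in its group, so that fit cannot part muscle content from lost replication. The sum of 10 skin genes was 1180 CPM in NGS vehicle 1, 389 CPM in NGS ACSS2i 1, 17.5 to 61.5 CPM in the other NGS libraries and 11 to 17.7 CPM in C57BI6, where Krt1, Flg, Dsg1a, Krtdap and Lce1a1 were at 0. The sum of 8 T cell genes was 1.61 to 4.28 CPM in NGS, with Cd3e and Cd3g at 0 in all NGS libraries. In C57BI6 it was 7.22 to 17.8 CPM in vehicle and 26.1 to 57 CPM in ACSS2i. All 8 T cell genes were above 0 in the effect of ACSS2i in C57BI6 (median 1.58). All 8 had an edgeR unadjusted p under 0.05 (7.96% of all genes). Of them 0 were called (0.312% of all genes), the lowest edgeR adjusted p being 0.0929. Sums of 8 macrophage (2090 to 3800 CPM), 8 fibroblast (5480 to 8390 CPM) and 8 endothelial genes (125 to 226 CPM) overlapped between the strains, but single genes differed. For the marker genes called between the strains, the shares of all genes were 18.8% higher and 14% lower in C57BI6 in vehicle. In ACSS2i those shares were 23.1% and 17.2%. Of the fibroblast genes 1 was higher and 5 lower in C57BI6 in vehicle and 1 higher and 4 lower in ACSS2i, with Col1a1 lower (2200 ± 156 CPM, n = 3, in NGS vehicle and 821 ± 291 CPM, n = 4, in C57BI6 vehicle) and Dcn higher (1340 ± 335 and 2880 ± 366 CPM). Of the macrophage genes 2 were lower in vehicle, and 1 was higher and 3 lower in ACSS2i, and of the endothelial genes 1 and 3 were lower. The sum of 8 adipocyte genes ran from 56.1 to 1300 CPM, and all 8 were below 0 in both strain differences (median -2.26 in vehicle and -1.44 in ACSS2i), with 2 called, both in ACSS2i. The part of these cell types in the clock gene differences was not tested. The sum of 10 mammary epithelial genes was 223 to 711 CPM, highest in the skin-rich NGS vehicle 1, and Krt14 and Krt5 are also in the skin list. Of the 7 mammary genes tested 1 was higher and 4 lower in C57BI6 in vehicle, and 2 were higher and 2 lower in ACSS2i. Krt8 was at 175 to 395 CPM, while Epcam, Elf5 and Krt7 were at 3.84, 1.14 and 0.248 CPM or less. Of the hormone receptors Esr1 was at 9.88 to 19.3 CPM, Erbb2 at 4.4 to 8.89 CPM and Pgr at 1.65 CPM or less. In bulk RNA, fewer cells of a type and less RNA per cell cannot be told apart.

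The series' design line names Bmal1 status, but no label assigns one to a library. Arntl (ENSMUSG00000055116, chromosome 7, 113207465 to 113314126, protein-coding) was detected in all 14 libraries, with 12 to 254 counts. Counting at the 3′ end would not show the loss of an internal exon, so these counts leave the state of the gene unknown, and no library was grouped by its Arntl level.

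The first question was how tumours of the strains differed in their clock genes, and it was asked separately in the vehicle and in the ACSS2i libraries. In both treatments C57BI6 tumours had more Arntl, Clock and Per1 RNA than NGS tumours and less Per2, Per3, Cry1 and Dbp RNA. The largest differences were the 3.31-fold lower Per2 in vehicle and the 4.02-fold higher Per1 in ACSS2i. Nr1d1 was lower in C57BI6 in the ACSS2i libraries and did not pass the threshold in vehicle, and Cry2 and Nr1d2 passed it in neither treatment. Differences are given as log2 fold change, C57BI6 minus NGS, with the standard error (SE) of the edgeR quasi-likelihood fit and a p-value adjusted by Benjamini-Hochberg over all 17294 genes, with a threshold of 0.05. Levels are CPM scaled by TMM, with the SD over libraries, and since 3′ counting sees genes unequally they are compared between groups and not between genes.

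**Figure D1:**
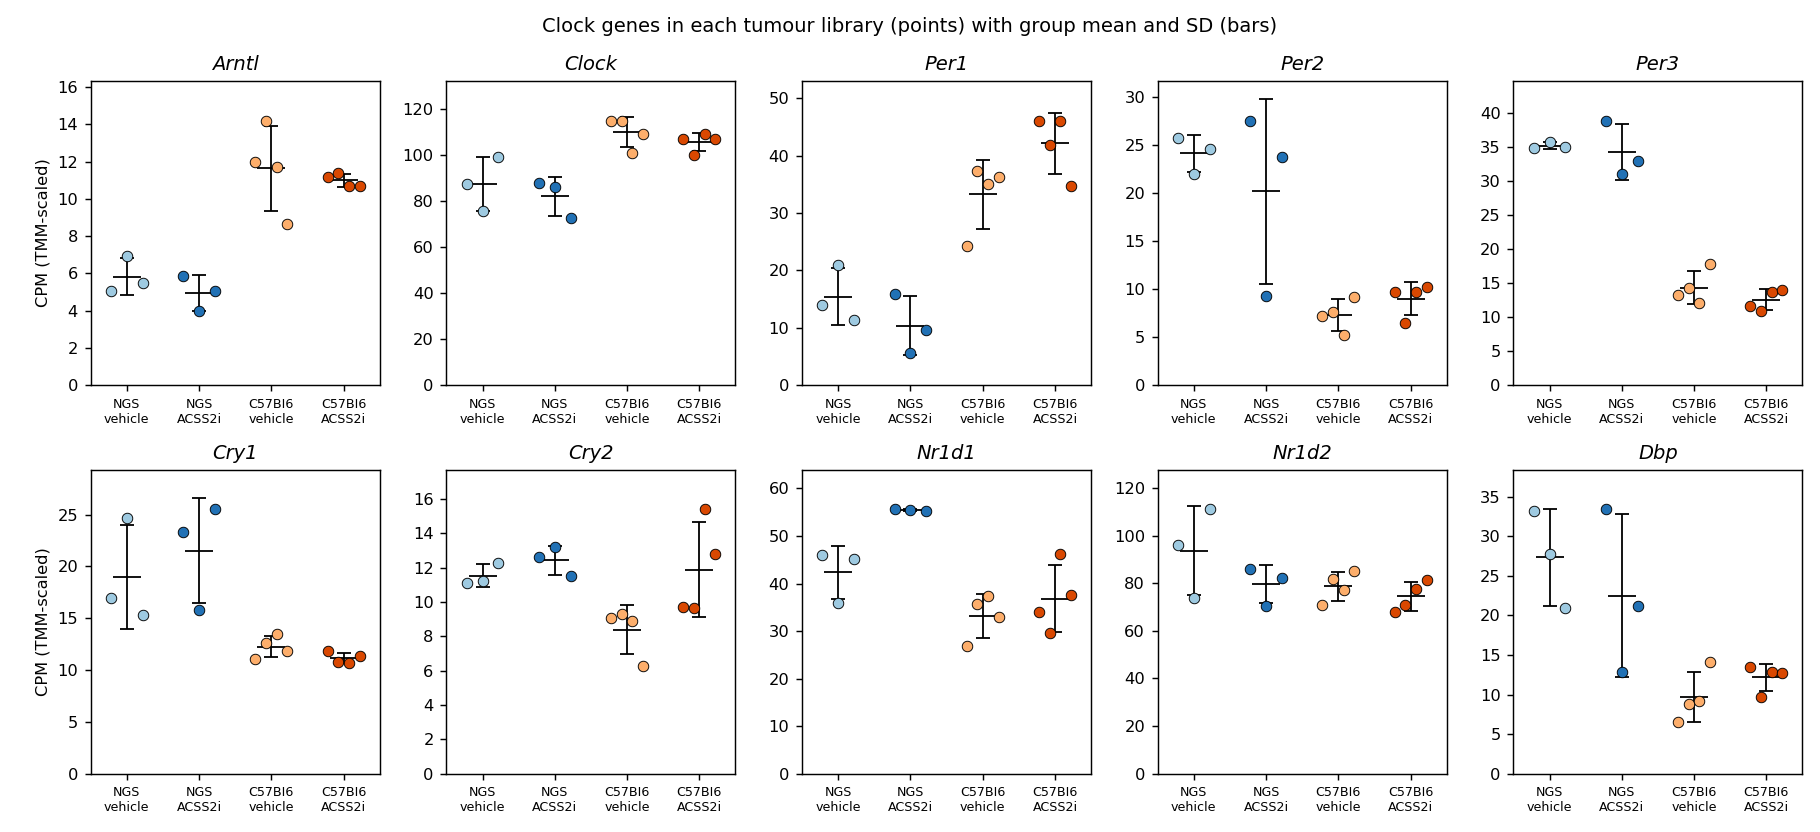
Level of each clock gene in CPM (vertical axes from 0, TMM-scaled) in the 14 tumour libraries (points) of the 4 groups, with group mean and SD (bars; n = 3 per NGS group and n = 4 per C57BI6 group). Arntl, Clock, Per1, Per3 and Cry1 have no overlap between the strains within either treatment, and in Per2 and Dbp the point of NGS ACSS2i replicate 2 lies near the C57BI6 libraries.

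The activators of the loop were both higher in C57BI6. Arntl, without which the loop stops, was at 5.06, 6.95 and 5.47 CPM in NGS vehicle and 12, 14.2, 11.7 and 8.63 CPM in C57BI6 vehicle. In ACSS2i libraries it was at 5.88, 3.95 and 5.06 CPM in NGS and 11.2, 11.4, 10.7 and 10.7 CPM in C57BI6. Every C57BI6 library was above every NGS library, also across treatments. The difference was 1.00 ± 0.20 in vehicle (2-fold higher, edgeR adjusted p = 0.00153) and 1.14 ± 0.21 in ACSS2i (2.2-fold higher, edgeR adjusted p = 0.000668), and it held its direction and call in all 24 alternative settings. Clock (ENSMUSG00000029238, chromosome 5, 76209868 to 76304792, protein-coding), the partner of Arntl, was at 87.4, 75.6 and 99.2 CPM in NGS vehicle and 115, 115, 101 and 109 CPM in C57BI6 vehicle, and at 87.7, 86 and 72.5 CPM in NGS ACSS2i and 107, 100, 109 and 107 CPM in C57BI6 ACSS2i. Its groups did not overlap, but the gap between the highest NGS and the lowest C57BI6 library was narrow. The difference was 0.33 ± 0.11 in vehicle (1.26-fold higher, edgeR adjusted p = 0.0254) and 0.37 ± 0.11 in ACSS2i (1.29-fold higher, edgeR adjusted p = 0.0137). The call of Clock was lost in 9 of 24 alternatives in vehicle. 1 of the 9 left out the 3 muscle-rich libraries, so that NGS vehicle 1 stood alone for its group (0.366). Others left out the 2 skin-rich libraries (edgeR adjusted p = 0.0545) or 1 of NGS vehicle 1 (0.0587), NGS vehicle 2 (0.128), C57BI6 vehicle 1 (0.0611) and C57BI6 vehicle 2 (0.065). In ACSS2i the call of Clock was lost in 3 of 24, among them in thinned libraries (edgeR adjusted p = 0.0882) and without NGS ACSS2i 3 (0.0668).

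The period genes, repressors that dimerise with the cryptochromes, did not move together. Per1 (ENSMUSG00000020893, chromosome 11, 69095217 to 69109960, protein-coding), which many signals also induce acutely, was at 14, 20.9 and 11.4 CPM in NGS vehicle and 24.3, 37.3, 35.1 and 36.3 CPM in C57BI6 vehicle. In ACSS2i libraries Per1 was at 15.8, 5.6 and 9.67 CPM in NGS and 46, 41.8, 46.1 and 34.7 CPM in C57BI6. All C57BI6 libraries were above all NGS libraries, with C57BI6 vehicle 1 the lowest of them and NGS ACSS2i 2 the lowest of all. The Per1 difference was 1.11 ± 0.26 in vehicle (2.16-fold higher, edgeR adjusted p = 0.00473) and 2.01 ± 0.28 in ACSS2i (4.02-fold higher, edgeR adjusted p = 6.86e-05). Per2 (ENSMUSG00000055866, chromosome 1, 91415982 to 91459324, protein-coding), a core repressor, went the other way, from 25.7, 22 and 24.6 CPM in NGS vehicle to 7.15, 7.61, 5.2 and 9.17 CPM in C57BI6 vehicle. In ACSS2i libraries Per2 was at 27.5, 9.23 and 23.7 CPM in NGS and 9.67, 6.45, 9.63 and 10.2 CPM in C57BI6. The vehicle groups were far apart, while in ACSS2i the value of NGS ACSS2i 2 fell inside the C57BI6 range. The Per2 difference was -1.73 ± 0.28 in vehicle (3.31-fold lower, edgeR adjusted p = 0.000274) and -1.18 ± 0.28 in ACSS2i (2.27-fold lower, edgeR adjusted p = 0.00431). Per3 (ENSMUSG00000028957, chromosome 4, 151003652 to 151044665, protein-coding), the gene with both D-boxes shown above and the least needed period gene for rhythm, was at 34.8, 35.7 and 34.9 CPM in NGS vehicle and 13.2, 14.2, 12.1 and 17.7 CPM in C57BI6 vehicle. In ACSS2i libraries Per3 was at 38.8, 31 and 32.9 CPM in NGS and 11.6, 10.8, 13.7 and 14 CPM in C57BI6. It had the smallest p of the 10 genes in both treatments. The NGS vehicle libraries lay within an SD of 0.482 CPM on 153 to 172 counts, closer than counting error alone would hold them. The Per3 difference was -1.30 ± 0.15 in vehicle (2.46-fold lower, edgeR adjusted p = 8.1e-06) and -1.45 ± 0.15 in ACSS2i (2.73-fold lower, edgeR adjusted p = 3.08e-06). The calls of Per1, Per2 and Per3 were kept in all 24 alternatives of both comparisons.

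The cryptochromes, which do most of the repression of the CLOCK and ARNTL pair, differed less. Cry1 (ENSMUSG00000020038, chromosome 10, 85131700 to 85185064, protein-coding) was at 17, 24.7 and 15.3 CPM in NGS vehicle and 11.1, 12.6, 13.5 and 11.8 CPM in C57BI6 vehicle, and at 23.3, 15.8 and 25.5 CPM in NGS ACSS2i and 11.8, 10.8, 10.7 and 11.4 CPM in C57BI6 ACSS2i. The groups did not overlap, and the spread was wider in NGS. The Cry1 difference was -0.63 ± 0.18 in vehicle (1.55-fold lower, edgeR adjusted p = 0.0147) and -0.96 ± 0.18 in ACSS2i (1.94-fold lower, edgeR adjusted p = 0.000784). In vehicle 1 library decided the call: without NGS vehicle 2, the muscle-richest library and the vehicle library highest in Cry1, the difference was -0.394 and did not pass (edgeR adjusted p = 0.121). Without the 3 muscle-rich libraries, which leaves only NGS vehicle 1 in its group, the Cry1 difference in vehicle was -0.438. Cry2 (ENSMUSG00000068742, chromosome 2, 92403646 to 92434043, protein-coding) was at 11.1, 11.2 and 12.3 CPM in NGS vehicle and 9.1, 9.29, 8.92 and 6.28 CPM in C57BI6 vehicle. In ACSS2i libraries Cry2 was at 12.6, 13.2 and 11.5 CPM in NGS and 9.72, 9.63, 15.4 and 12.8 CPM in C57BI6. The vehicle groups did not overlap and the ACSS2i groups did. Neither Cry2 difference passed, at -0.46 ± 0.20 in vehicle (edgeR adjusted p = 0.0871) and -0.06 ± 0.20 in ACSS2i (95% interval -0.49 to 0.36, edgeR adjusted p = 0.826).

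Of the REV-ERB pair, which closes the second loop on Arntl, only Nr1d1 reached a call. Nr1d1 (ENSMUSG00000020889, chromosome 11, 98767932 to 98775333, protein-coding) was at 46.1, 35.9 and 45.1 CPM in NGS vehicle and 26.8, 35.8, 37.4 and 32.9 CPM in C57BI6 vehicle, and at 55.6, 55.4 and 55.2 CPM in NGS ACSS2i and 34, 29.6, 46.2 and 37.5 CPM in C57BI6 ACSS2i. The vehicle groups overlapped and the ACSS2i groups did not. The Nr1d1 difference did not pass in vehicle (-0.35 ± 0.15, edgeR adjusted p = 0.0951) and passed in ACSS2i (-0.59 ± 0.15, 1.5-fold lower, edgeR adjusted p = 0.00738). In libraries thinned to the smallest total it passed in vehicle too, at -0.635 (edgeR adjusted p = 0.0127), and with upper quartile scaling at -0.433 (0.0376). The change between these differences is the interaction given below, which did not pass. Nr1d2 (ENSMUSG00000021775, chromosome 14, 18204054 to 18239127, protein-coding) was at 96.1, 73.8 and 111 CPM in NGS vehicle, 71, 81.6, 77.3 and 85.1 CPM in C57BI6 vehicle, 86.1, 70.5 and 82.2 CPM in NGS ACSS2i and 68.1, 70.7, 77.4 and 81.5 CPM in C57BI6 ACSS2i. All 4 groups overlapped. Its difference was -0.25 ± 0.13 in vehicle (95% interval -0.53 to 0.03, edgeR adjusted p = 0.155) and -0.10 ± 0.13 in ACSS2i (95% interval -0.38 to 0.18, edgeR adjusted p = 0.577). It passed in vehicle without NGS vehicle 2 (-0.394, edgeR adjusted p = 0.0307) and was at -0.094 without NGS vehicle 3 (0.629).

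The output gene Dbp (ENSMUSG00000059824, chromosome 7, 45705088 to 45710203, protein-coding) was at 33.2, 27.8 and 21 CPM in NGS vehicle and 6.59, 8.78, 9.2 and 14.1 CPM in C57BI6 vehicle. In ACSS2i libraries Dbp was at 33.4, 12.9 and 21.2 CPM in NGS and 13.5, 9.68, 12.9 and 12.7 CPM in C57BI6. NGS ACSS2i 2 lay inside the C57BI6 range, as for Per2. The Dbp difference was -1.50 ± 0.28 in vehicle (2.83-fold lower, edgeR adjusted p = 0.000979) and -0.89 ± 0.29 in ACSS2i (1.86-fold lower, edgeR adjusted p = 0.0231). The ACSS2i call rested on the library highest in Dbp: without NGS ACSS2i 1, which is also among the skin-rich libraries, the difference was -0.491 (edgeR adjusted p = 0.198). It was also lost without C57BI6 ACSS2i 2 (-0.804, 0.0557), without the 2 skin-rich libraries (-0.497, 0.186) and without the 3 muscle-rich libraries (-0.905, 0.0506). The vehicle call of Dbp was kept in all 24 alternatives.

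**Figure D2:**
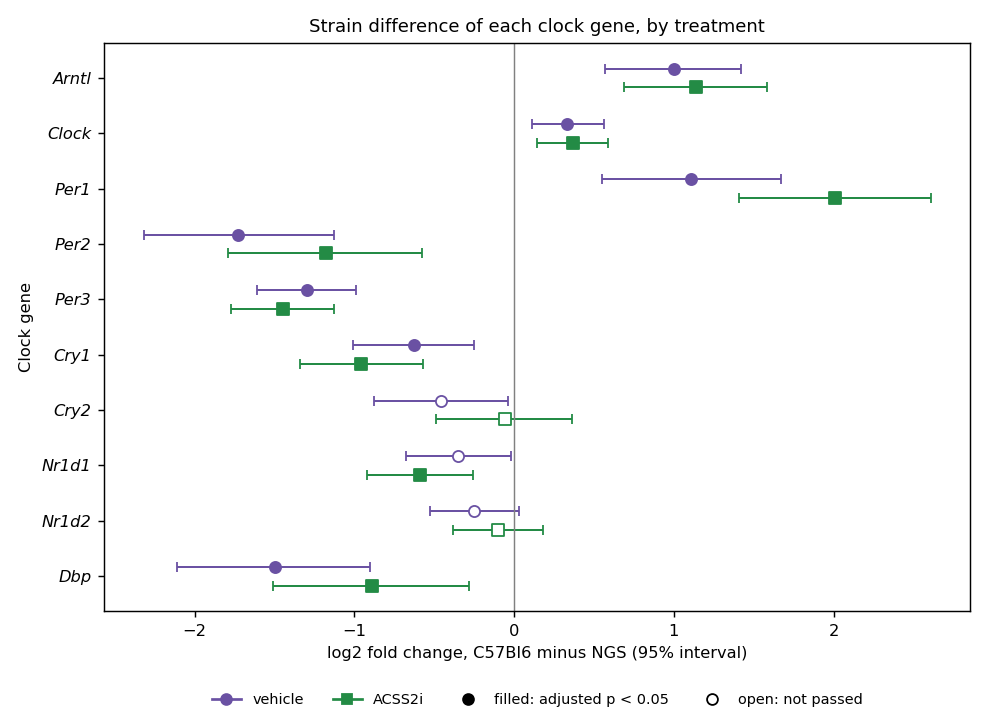
Strain difference of each clock gene as log2 fold change, C57BI6 minus NGS (horizontal axis, lines are 95% intervals), in vehicle (circles) and ACSS2i libraries (squares), filled where edgeR adjusted p was under 0.05. Arntl, Clock and Per1 lie right of 0 and the other 7 genes left of it, from -1.73 for Per2 in vehicle to 2.01 for Per1 in ACSS2i.

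Counted over the list, 7 of 10 clock genes were called in vehicle, 3 higher and 4 lower, where 32.8% of all genes tested were called, 18.8% higher and 14% lower. In ACSS2i 8 of 10 were called, 3 higher and 5 lower, where 40.3% of all genes were, 23.1% higher and 17.2% lower. Groups did not overlap for 8 clock genes in vehicle (40.6% of all genes) and for 6 in ACSS2i (44.6% of all genes). The median difference over the 10 genes was -0.41 in vehicle and -0.34 in ACSS2i, against 0.01 and 0.06 over all genes. With 10 genes these shares describe the list and are not a test of it. Over the 24 alternatives the number of clock genes called ran from 5 to 8 in vehicle and from 7 to 8 in ACSS2i.

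**Figure D3:**
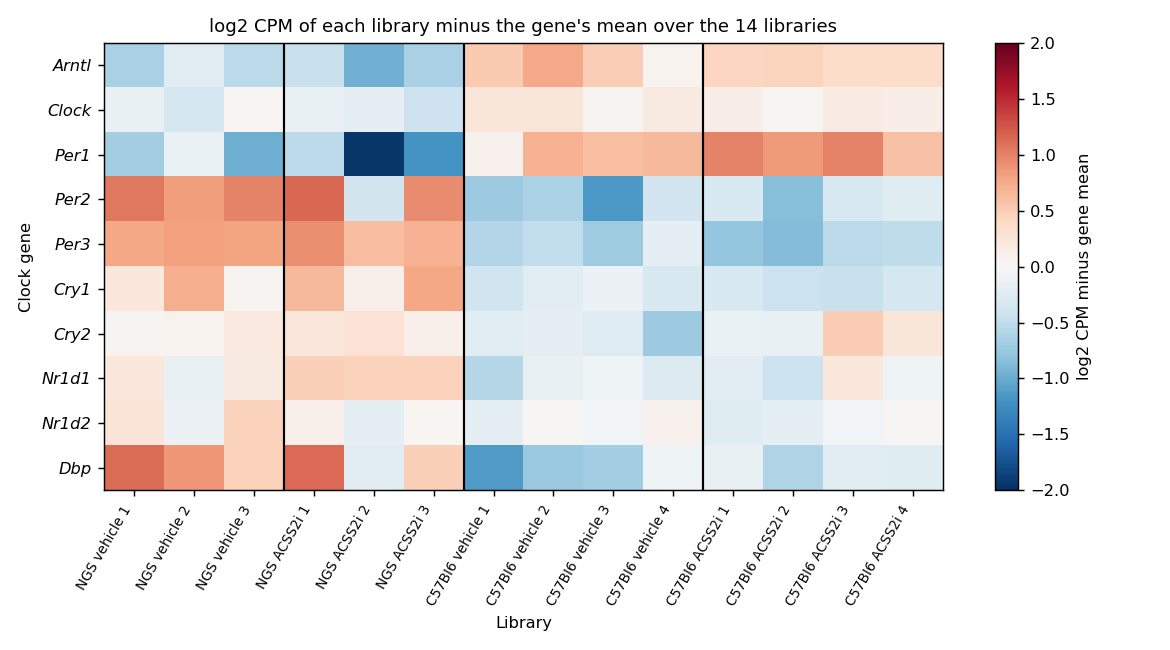
Log2 CPM of each clock gene (rows) in each library (columns, groups parted by lines) minus the mean of the gene over the 14 libraries, from blue (lower) to red (higher). Arntl and Per1 run blue to red from NGS to C57BI6 while Per2, Per3 and Dbp run red to blue, and NGS ACSS2i replicate 2 is the darkest blue of Per1, at 1.94 below its mean.

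Other genes of the clock were read from lists of which 26 genes are reported here, 25 of them tested and Npas2 too low. In vehicle 8 of 25 were higher in C57BI6 and 6 lower (18.8% and 14% of all genes), and in ACSS2i 9 of 25 were higher and 7 lower (23.1% and 17.2% of all genes). Their median difference was 0.20 in vehicle and 0.00 in ACSS2i. Of 5 further genes listed as repressors, where the role of Timeless is less settled, 3 were higher in vehicle and 4 in ACSS2i. Bhlhe41, which binds E-boxes, was higher by 1.03 ± 0.22 in vehicle and 1.22 ± 0.23 in ACSS2i (edgeR adjusted p = 0.00271 and 0.000771). Nfil3, which competes with DBP for D-boxes, was higher by 1.25 ± 0.24 and 1.04 ± 0.24 (edgeR adjusted p = 0.00107 and 0.00345). Timeless was higher by 0.83 ± 0.20 and 0.76 ± 0.21 (edgeR adjusted p = 0.00625 and 0.00916), and Bhlhe40 passed in ACSS2i (0.69 ± 0.22, 0.0214), while Ciart was at -0.07 and -0.02 and did not pass. Of the relatives of Dbp, 1 of 2 was lower in vehicle and both in ACSS2i. Tef was at -0.64 ± 0.16 and -0.44 ± 0.16 (edgeR adjusted p = 0.00749 and 0.0438), and Hlf was at -0.82 ± 0.45 in vehicle (0.177) and -1.67 ± 0.44 in ACSS2i (0.00759). The ACSS2i call of Tef was lost in 13 of 24 alternatives.

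Of the activators other than Arntl and Clock, Arntl2, a relative of Arntl, was at 0.54 ± 0.35 in vehicle and higher by 1.48 ± 0.37 in ACSS2i (edgeR adjusted p = 0.255 and 0.00564). Rora, the receptor that competes with the REV-ERBs at ROR elements, was at -0.99 ± 0.21 in vehicle and at -0.13 ± 0.21 in ACSS2i (edgeR adjusted p = 0.00201 and 0.668). Rorb, at 10.8 ± 3.91 CPM (n = 3) in NGS vehicle and 0.584 ± 0.446 CPM (n = 4) in C57BI6 vehicle, was at -4.17 ± 0.81 (edgeR adjusted p = 0.00116), with -1.68 ± 0.89 in ACSS2i (0.148). Among 8 kinases and ubiquitin enzymes 3 were higher and 2 lower in vehicle (18.8% and 14% of all genes). In ACSS2i 1 was higher and 2 lower (23.1% and 17.2% of all genes). Csnk1e, a kinase of the period proteins, was higher by 0.60 ± 0.10 and 0.27 ± 0.10 (edgeR adjusted p = 0.000408 and 0.0463), the latter lost in 15 of 24 alternatives. Huwe1 was lower in both (-0.31 ± 0.11 and -0.58 ± 0.11, edgeR adjusted p = 0.0375 and 0.00073). In vehicle Usp2, which is itself a rhythmic gene, was lower (-1.20 ± 0.26, 0.00263) and Fbxl21 and Btrc were higher (1.91 ± 0.68 and 0.46 ± 0.15, edgeR adjusted p = 0.043 and 0.0288). In ACSS2i Gsk3b was lower (-0.33 ± 0.09, edgeR adjusted p = 0.0122). Among direct outputs Nampt, which makes the NAD precursor, was higher by 0.51 ± 0.16 in vehicle and 0.95 ± 0.16 in ACSS2i (edgeR adjusted p = 0.0228 and 0.000346). Leo1 was higher by 0.74 ± 0.12 and 0.79 ± 0.13 and Tspan4 was at -0.47 ± 0.14 and -0.77 ± 0.14 (edgeR adjusted p from 0.000198 to 0.0205). In ACSS2i Klf10 was higher (0.95 ± 0.22, edgeR adjusted p = 0.00322) and Wee1 and Por were lower (-0.42 ± 0.14 and -0.38 ± 0.12, 0.0317 and 0.0161). Of the calls of other clock genes, those of Fbxl21, Btrc and Huwe1 in vehicle were lost in 11 to 12 alternatives, Wee1 in 9, Bhlhe40 in 6 and Tspan4 in vehicle in 4. The fit without the 3 muscle-rich libraries kept only NGS vehicle 1 in its group. Its vehicle differences were -0.587 for Usp2, -0.343 for Tef, 0.374 for Nampt, 1.017 for Nfil3 and 1.047 for Timeless. Without NGS vehicle 3 alone Tef was at -0.419 (edgeR adjusted p = 0.0622) and Nampt at 0.412 (0.0899).

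**Figure D4:**
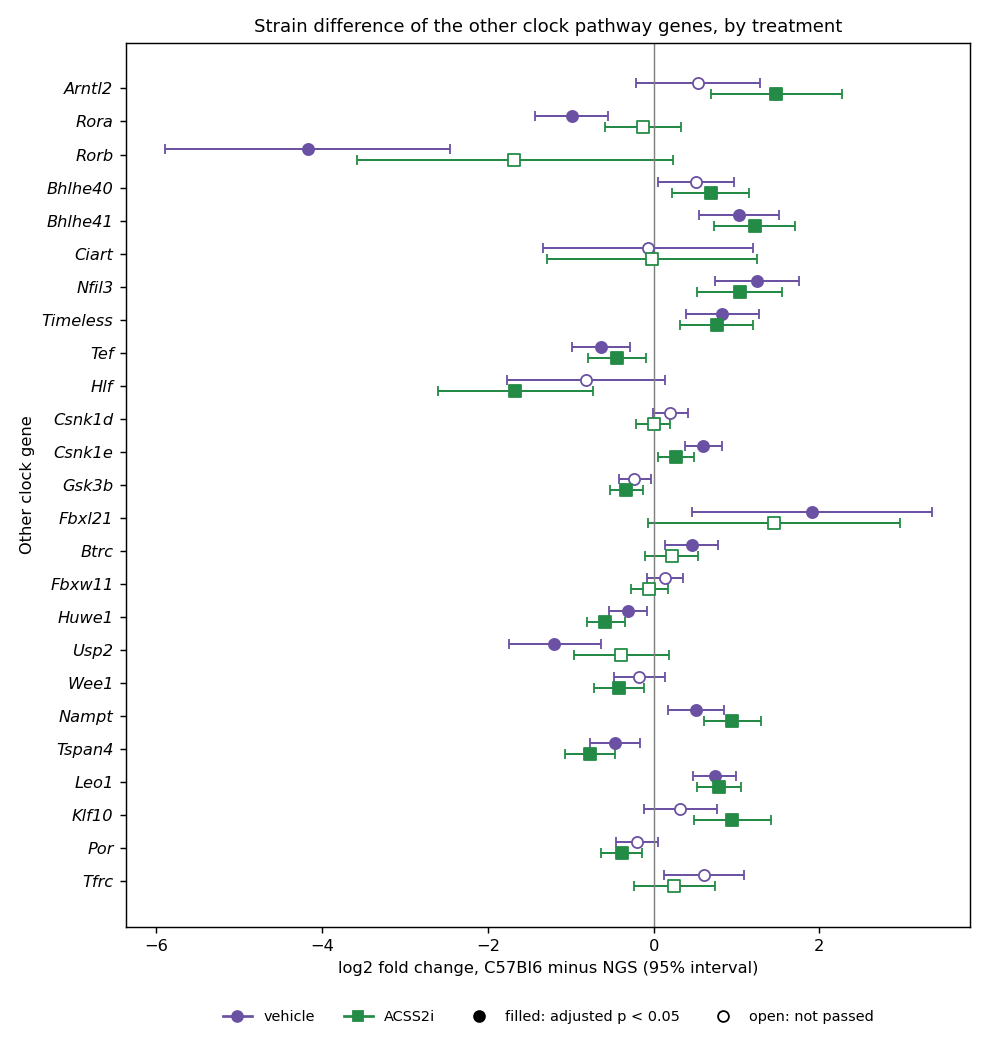
Strain difference of 25 other clock genes tested as log2 fold change, C57BI6 minus NGS (horizontal axis, lines are 95% intervals), in vehicle (circles) and ACSS2i libraries (squares), filled where edgeR adjusted p was under 0.05. Bhlhe41, Nfil3 and Timeless lie right of 0 in both treatments, Tef left of it in both, and Rorb reaches -4.17 in vehicle.

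Acute signals that act on Per1 were read from further lists. Of 10 immediate early genes, transcribed within minutes of a stimulus, 6 were higher in C57BI6 in vehicle (18.8% of all genes) and 9 in ACSS2i (23.1%), and 0 were lower. Atf3 was higher by 2.10 ± 0.34 and 2.02 ± 0.35 and kept its call in all 24 alternatives of both comparisons. Fosb was higher by 2.47 ± 0.65 and 2.55 ± 0.70. These counts moved with the libraries and the test used. With limma voom 4 of 10 were called in vehicle and 3 in ACSS2i. Without the 3 muscle-rich libraries, which leaves only NGS vehicle 1 in its group, the median difference in vehicle was 1.11, against 0.96 in the main fit. In ACSS2i 4 were called without NGS ACSS2i 2, 5 without C57BI6 ACSS2i 2 and 6 without NGS ACSS2i 3. The call of Egr2 in ACSS2i was lost in 20 of 24 alternatives, and that of Jun in vehicle in 10 of 24.

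Of 10 glucocorticoid-responsive genes 3 were higher and 2 lower in vehicle (18.8% and 14% of all genes), and 5 were higher and 1 lower in ACSS2i (23.1% and 17.2%), with medians of 0.15 and 0.65. Without the 3 muscle-rich libraries, which leaves only NGS vehicle 1 in its group, the median in vehicle was 0.12. Without NGS ACSS2i 2 the number higher in ACSS2i was 2. Dusp1, a phosphatase induced by stress and glucocorticoids, was higher by 2.36 ± 0.40 and 2.27 ± 0.41, while Zbtb16 was at -2.89 ± 0.63 and -2.23 ± 0.56. Fkbp5, a classic glucocorticoid target, was at -0.40 ± 0.22 and 0.02 ± 0.23 and did not pass. Of 10 hypoxia genes 3 were higher in vehicle (18.8% of all genes) and 8 in ACSS2i (23.1%), and 0 were lower in either. The vehicle count was 1 without NGS vehicle 3 or with upper quartile scaling, and 5 without NGS ACSS2i 1, without NGS ACSS2i 2 or with no filter on low counts. The median of the hypoxia genes in vehicle was 0.30 in the main fit and 0.21 without the 3 muscle-rich libraries. In NGS all 10 hypoxia genes were below 0 in the effect of ACSS2i (median -0.76), and 4 were called lower, where 2.69% of all genes were called in either direction. Those were Slc2a1 (-1.46 ± 0.24), Egln3 (-0.69 ± 0.14), Bnip3 (-0.78 ± 0.12) and Ndrg1 (-0.75 ± 0.17). The count ran from 0 to 7 over the 24 alternatives, with 0 in the NGS libraries fitted alone. It was 2 without each of NGS vehicle 2, NGS ACSS2i 2 and NGS ACSS2i 3, and 7 without NGS ACSS2i 1. Without the 3 muscle-rich libraries the median effect in NGS was -0.90. The part of these lists in the Per1 difference was not tested.

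Some reads of the members could come from neighbours, since the strand setting of the counting is stated by no label. The 3′ ends of Nr1d1 and Thra share 263 exon bases on opposite strands, and Thra was at 0.38 ± 0.11 in vehicle (edgeR adjusted p = 0.0196) and 0.07 ± 0.11 in ACSS2i (0.63), above 0 where Nr1d1 was below it. In NGS both were above 0 in the effect of ACSS2i, with Thra at 124 to 136 CPM in vehicle and 139 to 175 CPM in ACSS2i (0.24 ± 0.12, edgeR adjusted p = 0.261) beside Nr1d1 at 0.39 ± 0.17. The 3′ ends of Dbp and Sphk2 share 539 exon bases on opposite strands, and Sphk2 was at -0.17 ± 0.17 in vehicle (edgeR adjusted p = 0.478) and -0.53 ± 0.17 in ACSS2i (0.0216). The antisense genes Gm45355 over Arntl and D930015M05Rik over Cry2 had no or almost no reads (0.0559 CPM at most), and Camta1 over Per3 shares no exon bases with it.

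The second question was what the inhibitor did to the clock genes. In neither strain did a clock gene pass the threshold. In C57BI6 0 of 10 were called, where 0.312% of all genes were, and 1 of 10 had an unadjusted p under 0.05 (7.96% of all genes). In NGS 0 of 10 were called, where 2.69% were, again with 1 at an unadjusted p under 0.05 (22.1% of all genes). The DESeq2 test and limma voom also called 0 of 10 in each strain.

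The genes nearest to a call were Cry2 in C57BI6 and Nr1d1 in NGS. Cry2 was at 6.28 to 9.29 CPM in C57BI6 vehicle and 9.63 to 15.4 CPM in C57BI6 ACSS2i, with no overlap (9.33% of all genes had none). Its effect, ACSS2i minus vehicle, was 0.50 ± 0.17 (95% interval 0.13 to 0.86, edgeR unadjusted p = 0.0108, adjusted p = 0.355), and in NGS it was 0.10 ± 0.22 (95% interval -0.37 to 0.58). Nr1d1 in NGS went from 42.4 ± 5.64 CPM in vehicle to 55.4 ± 0.197 CPM in ACSS2i (mean ± SD, n = 3 each), with no overlap (18.8% of all genes had none). The NGS ACSS2i libraries held 168 to 240 counts of Nr1d1, so their SD was smaller than counting error alone would give. The effect on Nr1d1 in NGS was 0.39 ± 0.17 (95% interval 0.02 to 0.75, edgeR unadjusted p = 0.0383, adjusted p = 0.198), and in C57BI6 it was 0.15 ± 0.14 (95% interval -0.15 to 0.45). Arntl was at -0.08 ± 0.16 in C57BI6 (95% interval -0.42 to 0.27) and -0.22 ± 0.24 in NGS (95% interval -0.73 to 0.30). Clock had the narrowest intervals, -0.26 to 0.14 in C57BI6 and -0.34 to 0.15 in NGS.

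Intervals of the period genes and Dbp were wide in NGS. Per1 was at 0.34 ± 0.22 in C57BI6 (95% interval -0.13 to 0.81) and -0.56 ± 0.31 in NGS (95% interval -1.21 to 0.10). Per2 was at 0.30 ± 0.26 (95% interval -0.24 to 0.85) and -0.24 ± 0.31 (-0.90 to 0.41). Dbp was at 0.34 ± 0.26 (95% interval -0.22 to 0.89) and -0.27 ± 0.31 (-0.94 to 0.39). NGS ACSS2i 2, the library apart on the second component, was the lowest NGS library in Arntl, Per1, Per2, Per3 and Dbp, and without it the NGS effects of Per2, Per3 and Dbp turned to 0.105, 0.047 and 0.012. Per3 was at -0.19 ± 0.13 (95% interval -0.47 to 0.10) and -0.04 ± 0.16 (-0.38 to 0.31), Cry1 at -0.13 ± 0.16 (-0.48 to 0.21) and 0.19 ± 0.20 (-0.23 to 0.62), and Nr1d2 at -0.08 ± 0.12 (-0.34 to 0.17) and -0.23 ± 0.14 (-0.54 to 0.07), in C57BI6 and NGS in that order. These intervals do not exclude effects of the sizes within them.

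**Figure D5:**
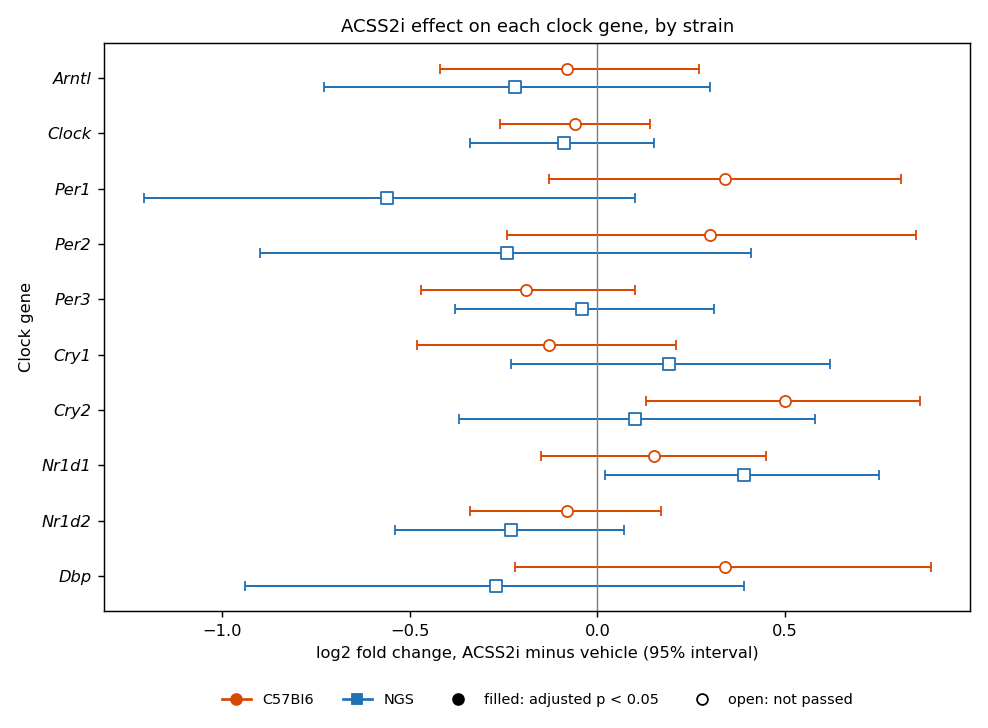
Effect of ACSS2i on each clock gene as log2 fold change, ACSS2i minus vehicle (horizontal axis, lines are 95% intervals), in C57BI6 (circles) and NGS (squares), all open because no edgeR adjusted p was under 0.05. Only the lines of Cry2 in C57BI6 and Nr1d1 in NGS stay clear of 0.

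The difference between the strains in the effect of the inhibitor, C57BI6 minus NGS, was tested as an interaction. It was called for 0 of 10 clock genes, where 0.0173% of all genes were called, and 1 of 10 had an unadjusted p under 0.05 (13.8% of all genes). That gene was Per1, at 0.90 ± 0.38 (95% interval 0.09 to 1.70, edgeR unadjusted p = 0.032, adjusted p = 0.323). Dbp was at 0.61 ± 0.41, Per2 at 0.55 ± 0.40, Cry2 at 0.40 ± 0.28 and Nr1d1 at -0.24 ± 0.22, and none passed. The effect averaged over both strains was called for 0 of 10, where 3.07% of all genes were, with 2 of 10 at an unadjusted p under 0.05 (19.8% of all genes), Nr1d1 (0.27 ± 0.11, edgeR adjusted p = 0.193) and Cry2 (0.30 ± 0.14, edgeR adjusted p = 0.251). The DESeq2 test and limma voom called 0 of 10 in the interaction and in the average as well.

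Last, the libraries were compared with each other within a strain, by correlating log2 CPM of Arntl with that of each of the other 9 clock genes over 8 C57BI6 and 6 NGS libraries. None of the 18 relations passed after Benjamini-Hochberg adjustment of exact two-sided permutation p-values. In NGS Per1 went with Arntl (Pearson r = 0.947, exact permutation p = 0.0111, adjusted p = 0.2; Spearman rho = 0.829, exact permutation p = 0.0583, adjusted p = 0.35), with r at 0.932 after centring on the group means. Over the 4 libraries left without the 2 farthest from the median of Arntl, which narrows its range, r was 0.596. In C57BI6 Dbp went against Arntl (Pearson r = -0.664, exact permutation p = 0.0782, adjusted p = 0.469; Spearman rho = -0.881, exact permutation p = 0.00724, adjusted p = 0.13), with r at -0.866 without the 2 farthest. In NGS Dbp and Arntl had an r of 0.716 (exact permutation p = 0.118, adjusted p = 0.5; Spearman rho = 0.486, exact permutation p = 0.356, adjusted p = 0.803), of the other sign than in C57BI6, and 0.29 without the 2 farthest. The difference between the strains in these correlations was not tested.

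Likeness to Arntl was measured for 12572 genes of mean log2 CPM of 1 or more as the smaller of the r in C57BI6 and the r in NGS, with no test. The most alike were Etfa (0.876), Rnf4 (0.869 in C57BI6 and 0.886 in NGS), Gm42899 (0.853), Uqcrfs1 (0.851) and Srebf1 (0.840). The most opposed, by the larger r, were Tmem35b (-0.885), Zfp142 (-0.858), Pop5 (-0.856), Orc5 (-0.845) and Zbtb40 (-0.843). The clock genes stood far from both ends: the most alike was Cry1 at rank 2012 (r = 0.275 in C57BI6 and 0.584 in NGS), and the most opposed Nr1d1 at rank 2937 from the other end (r = -0.065 and -0.688).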

How the data were processed

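Bulk tumour RNA was read with QuantSeq in 14 libraries. The values the authors deposited are whole-number counts per Ensembl gene, not normalized. The submitters' processing notes name mm10, RSEM 1.2.3 and DESeq2 without saying what each was for; estimates may have been rounded. Symbols and positions came from GENCODE M21 (GRCm38), matching 51596 of 51789 genes. Groups follow the labels of strain and treatment.

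Genes were kept by filterByExpr, scaled by TMM and tested two-sided with the edgeR 4.0.16 quasi-likelihood test in 1 model of 4 group means (common biological coefficient of variation 0.236). CPM are counts per TMM-scaled library total, and log2 CPM add a prior count of 2. Alternatives were other scalings, DESeq2 1.42.0, limma 3.58.1 voom, no filter, a replicate block, fewer libraries and thinned depth. Intervals cover 95%. The rule names all members, listed genes past the threshold, overlapping genes and the 5 genes most and least like Arntl. A few genes of the lists are not reported here. Members and lists were chosen with earlier results of these data known. Library pairs of a group differed by 6.57 to 26.4 times counting noise (chi-square per degree of freedom). The method was also run on simulated data with known changes, drawn with a common spread and few changed genes. Between the strains many genes differed, so that run does not speak for the strain calls.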

Additional observations from a re-analysis of the deposited data

Results flagged for a closer look

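In 20 groups of 4 libraries, a clock gene in C57BI6 vehicle or C57BI6 ACSS2i, 3 held a library far below the others, where chance gives about 1 in 20. Per1 in C57BI6 vehicle 1 was at 24.3 CPM against 35.1 to 37.3 CPM in the other 3 libraries, a gap of 0.8294 of the range of the group. Per2 in C57BI6 ACSS2i 2 was at 6.45 CPM against 9.63 to 10.2 CPM, a gap of 0.8463 of the range. Cry2 in C57BI6 vehicle 4 was at 6.28 CPM against 8.92 to 9.29 CPM, a gap of 0.877 of the range. No cause of these gaps was tested.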

How the results depend on the processing

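Arntl had as few as 12 counts in an NGS library. Over the kept genes together, library pairs of the NGS groups differed by 6.57 to 17.8 times counting noise. That figure does not speak for Arntl alone, whose spread was not set against counting error. The strain calls of Arntl, Per1, Per2 and Per3 in both treatments, Dbp in vehicle and Cry1 and Nr1d1 in ACSS2i kept direction and call in all 24 alternatives run. Upper quartile scaling moved the median strain difference of all genes by -0.08 in vehicle and -0.10 in ACSS2i; with it Cry2 (edgeR adjusted p = 0.0434) and Nr1d1 (0.0376) passed in vehicle and Clock did not (0.0831 and 0.0622). Where a cause is not plain from fewer libraries or genes, it was not tested.

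Replicate numbers were not shown to pair the libraries: deviations of equal numbers correlated at -0.137 to 0.155 in C57BI6 and -0.002 to 0.095 in NGS. With a replicate block, genes called went to 9 (C57BI6), 254 (NGS) and 309 (average), and Clock (edgeR adjusted p = 0.0686) and Cry1 (0.0531) no longer passed in vehicle. Genes called by the main test were 54 for ACSS2i in C57BI6, 466 in NGS, 3 for the interaction, 531 for the average and 5666 and 6961 between strains. The DESeq2 test called 339, 1574, 283 and 1354 of the first 4. Limma voom called 429, 27 and 0 of the first 3. Without a filter C57BI6 gave 112 and the interaction 7, and with only the compared libraries C57BI6 gave 266 and NGS 9. Thinned libraries gave 24 in C57BI6, 1 in the interaction, 349 in the average and 3766 between strains in vehicle. Chosen after seeing the data, leaving out the 3 muscle-rich libraries gave 26, 26, 142 (average) and 3061 (strains, vehicle), and leaving out the 2 skin-rich libraries gave 117, 1073, 34 (interaction) and 1049 (average). Leaving out 1 library in turn gave 15 to 122 in C57BI6, 118 to 1743 in NGS, 1 to 62 in the interaction and 256 to 1412 in the average.

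Signs turned only for uncalled effects, apart from Sult1a1 of the glucocorticoid list. Thinning turned Arntl in C57BI6 to 0.04 and the interactions of Clock, Per3 and Nr1d1 to -0.099, 0.003 and 0.011. Without the muscle-rich libraries Arntl in NGS was 0.007 and its interaction -0.066, and the strain difference of Sult1a1 in vehicle was 0.021. Leaving out 1 library in turn, Arntl in C57BI6 ran from -0.195 to 0.046, its interaction from -0.001 to 0.274, Clock in NGS from -0.176 to 0.034, its interaction from -0.079 to 0.13, Per2, Per3 and Dbp in NGS from -0.52 to 0.105, -0.138 to 0.047 and -0.669 to 0.012, and the ACSS2i strain difference of Cry2 from -0.204 to 0.022. Centring on group means turned r of Arntl with Nr1d2 in NGS to -0.131. Without the 2 libraries farthest from the median of Arntl, r turned to -0.887 for Cry2 in C57BI6 and to 0.482, 0.937 and 0.28 for Clock, Cry2 and Nr1d1 in NGS.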
